A study of Mus musculus with 20 samples.

Results

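The expression of 10 genes of blood vessel growth and of the endothelium was analyzed in the ovaries of the high-fertility mouse line FL1 and of the unselected ctrl line. The genes were chosen by name as vascular growth factors, their receptors and endothelial genes, and all 10 of them (Vegfa, Kdr, Flt1, Tek, Angpt1, Angpt2, Pecam1, Cdh5, Sox17 and Efnb2) were found among the 54838 Ensembl genes of the count tables. The 20 libraries came from 4 groups of 5 females each, both lines being sampled once in estrus and once in diestrus, all aged 77 days by the labels and labelled WT, without transgene or treatment. FL1 is the Dummerstorf line bred over many generations for litter size and litter birth weight, and ctrl is a line kept without selection that descends from the same outbred founders. Each side of the line comparison is therefore a single breeding line. The stage was read from vaginal smears, with cornified epithelial cells in estrus and leucocytes in diestrus. Line and stage were taken from the sample titles, because the labels carry FL1 as source name for the ctrl libraries too.

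Blood vessels of the ovary grow and regress with every cycle, above all in the wall of the growing follicle and in the corpus luteum, which are vascularized again after each ovulation. VEGFA is the main growth factor for endothelial cells and acts through the receptor KDR (VEGFR2), while FLT1 (VEGFR1) binds the same ligand and in its soluble form acts as a trap for it. The angiopoietins bind the endothelial receptor TEK (TIE2): ANGPT1 stabilizes vessels, and ANGPT2 is known as a context-dependent antagonist that loosens them. PECAM1 and CDH5 (VE-cadherin) are adhesion molecules of the contacts between endothelial cells, SOX17 is a transcription factor of arterial endothelium, and EFNB2 (ephrin-B2) is a membrane-bound ligand that marks arterial endothelium and is also made by other cells.

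The median library held 6957533 counts, and the range was 5991223 to 10352718. The kit reads the 3' end of each mRNA, so that counts do not scale with transcript length, and levels are given as CPM, counts scaled to a common library size after TMM normalization. CPM were compared between groups and not between genes. The 10 genes had between 38 and 1317 counts per library, and all 10 passed the filter on low counts in each comparison. None of the 12 markers of endothelium, such as Pecam1, Cdh5, Tie1 and Vwf, was at 0 in all libraries, and the markers of granulosa cells, luteal cells and oocytes were counted in all 4 groups, so the labelled tissue held its defining cell types. Replicate 5 of ctrl in estrus stood apart from its group, with a median correlation of 0.938 with the other 4 libraries against 0.960 to 0.965 for these, and it carried the highest level of its group in 5 of the 10 genes.

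Between the stages in FL1, 7 of the 10 genes were weaker expressed in estrus than in diestrus at an adjusted p of at most 0.05 (edgeR), namely Vegfa, Kdr, Flt1, Angpt1, Pecam1, Cdh5 and Efnb2, and none was stronger expressed. Of all 13350 genes tested in this comparison, 15.9% were called and 8.49% were called as lower in estrus. For 5 of the 10 (Kdr, Flt1, Angpt1, Pecam1 and Cdh5) all FL1 estrus libraries lay below all FL1 diestrus libraries, which held for 6.51% of all genes tested. Over the 10 genes the median log2 fold change (log2FC) was -0.67, and over all genes tested it was 0.0071. In ctrl, 0 of the 10 genes differed between the stages, with 2.85% of 13334 genes called. At an unadjusted p under 0.05 there was 1 gene in ctrl (Flt1), against 15.4% of all genes, and DESeq2 and limma-voom also called 0 of the 10, against 5.06% and 4.90% of the genes they tested. The median log2FC of the 10 genes in ctrl was -0.22. Leaving out replicate 5 of ctrl in estrus, or any other library, gave 0 as well. Whole ovaries were sequenced, so fewer endothelial cells and less RNA per endothelial cell cannot be told apart in these values.

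Between the lines, 0 of the 10 genes differed in estrus, against 2.33% of 13374 genes called. In estrus 3 of the 10 (Kdr, Flt1 and Cdh5) had an unadjusted p under 0.05, all lower in FL1, against 8.30% of all genes, while DESeq2 called 1 (Cdh5, against 3.97% of genes) and limma-voom 0 (against 3.21%). In diestrus 1 of the 10, Efnb2, was stronger expressed in FL1, against 4.11% of 13259 genes called and 2.29% called as higher. The median log2FC of FL1 against ctrl over the 10 genes was -0.25 in estrus and 0.26 in diestrus. The difference between the lines in their stage change, tested as a line-by-stage interaction over all 20 libraries, was called for 0 of the 10 genes and for 0.0565% of 14154 genes. An unadjusted interaction p under 0.05 was found for 5 of the 10, against 11.7% of all genes, and DESeq2 and limma-voom called 0, against 0.953% and 0.219% of genes.

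**Figure D1:**
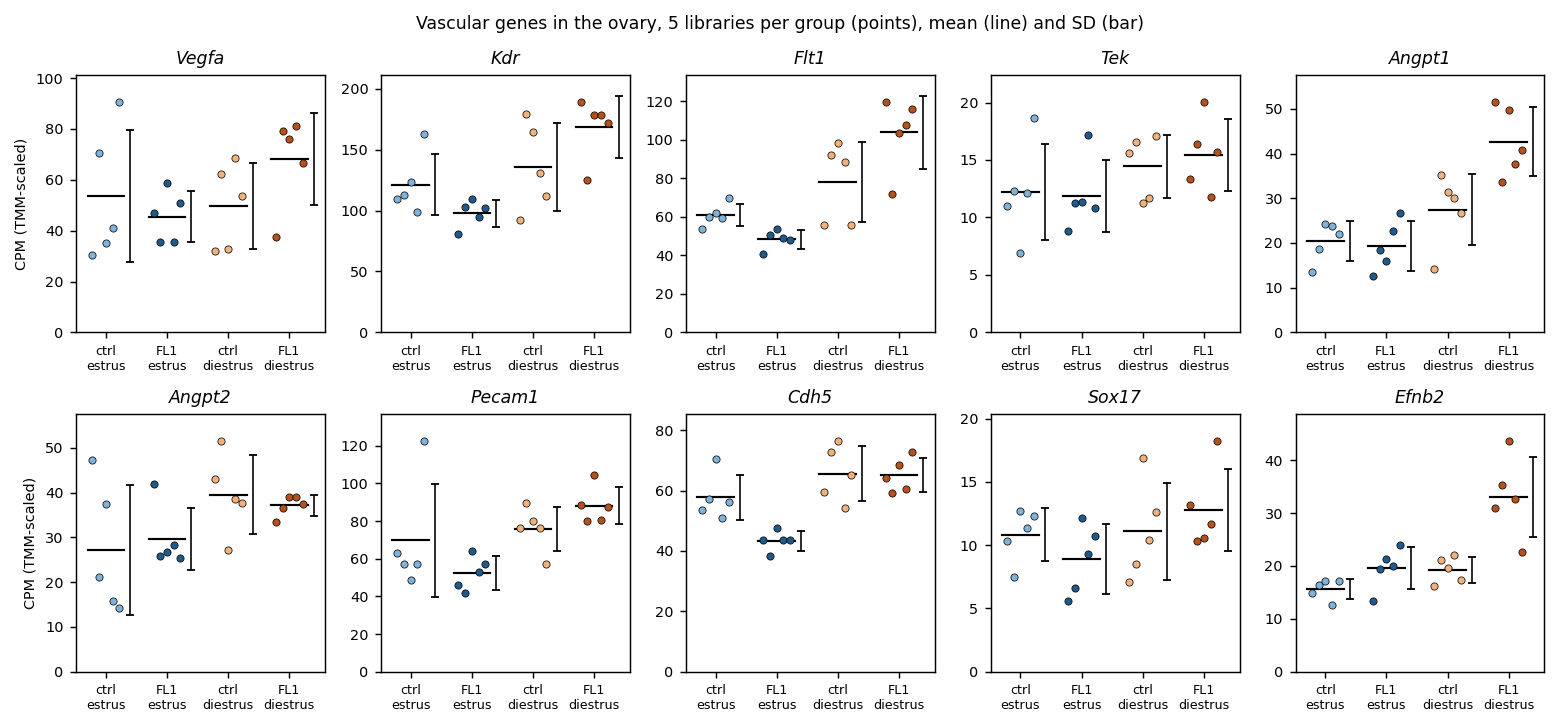
Level of each of the 10 genes in CPM (y axis, from 0) in the 4 groups (x axis), with 1 point per library, a line at the mean and a bar of 1 SD. In FL1 the diestrus libraries lie above all estrus libraries for Kdr, Flt1, Angpt1, Pecam1 and Cdh5, and the single high ctrl library in estrus for Pecam1 is replicate 5 at 122 CPM.

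**Figure D2:**
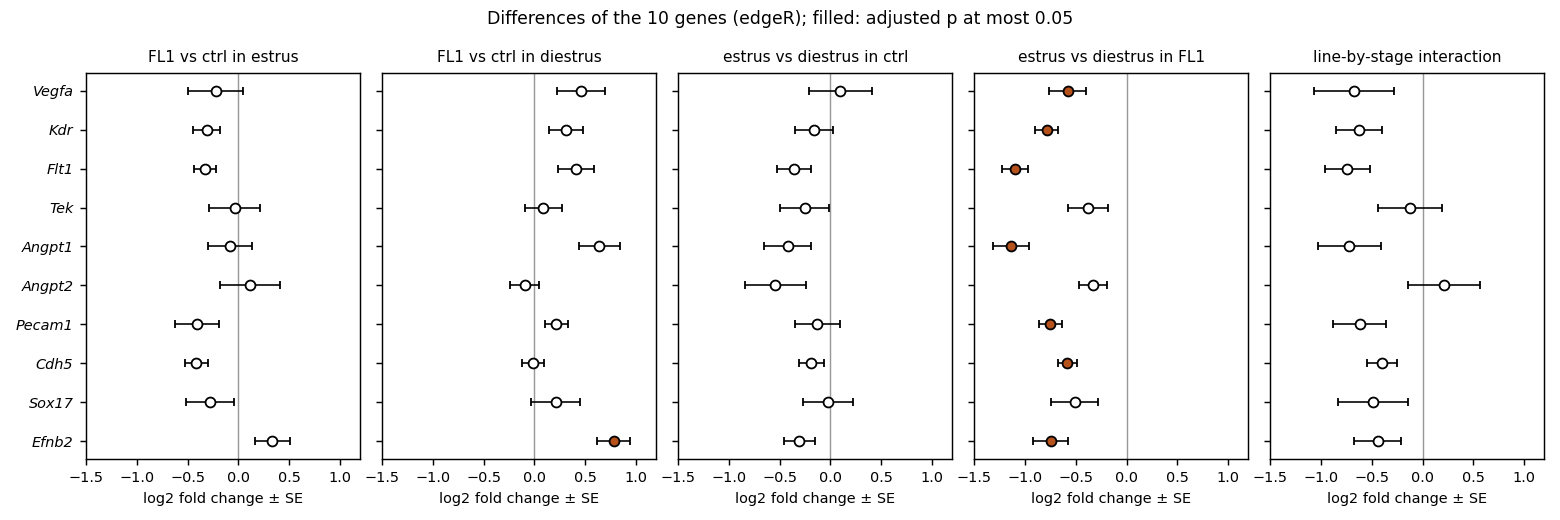
The log2FC ± SE of the 10 genes (y axis) in the 4 comparisons of 5 against 5 libraries and in the interaction over 20 libraries, with filled points for an adjusted p of at most 0.05 in edgeR. Filled points are found for 7 genes between the stages in FL1 and for Efnb2 between the lines in diestrus.

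Flt1 on chromosome 5 (147561604 to 147726011, GRCm38, minus strand), the receptor that can trap VEGFA, was expressed in FL1 at 40.6, 50.8, 53.8, 49.0 and 48.1 CPM in the 5 estrus libraries and at 119.6, 71.8, 104, 108 and 116 CPM in the 5 diestrus libraries. In ctrl it reached 53.7, 60.0, 61.8, 59.3 and 69.8 CPM in estrus and 55.7, 92.0, 98.6, 88.3 and 55.8 CPM in diestrus. All FL1 estrus libraries lay below all FL1 diestrus libraries, of which replicate 2 was the lowest, whereas the ctrl groups overlapped because replicates 1 and 5 of ctrl in diestrus were near the estrus level. The mean fell from 104 ± 19.0 CPM (SD, n = 5) in diestrus to 48.5 ± 4.88 CPM (SD, n = 5) in estrus of FL1, with a log2FC of -1.10 ± 0.13 (SE; edgeR adjusted p = 1.93e-05). In ctrl the log2FC between the stages was -0.36 ± 0.17 (edgeR adjusted p = 0.323).

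Kdr, the main signalling receptor of VEGFA, lies on the same chromosome (75932827 to 75978458, minus strand). Its FL1 libraries had 80.4, 103, 109, 94.7 and 102 CPM in estrus and 189, 125, 178, 179 and 172 CPM in diestrus. The ctrl libraries had 109, 112, 124, 98.8 and 163 CPM in estrus and 91.9, 179, 164, 131 and 112 CPM in diestrus. The FL1 groups did not overlap, and again replicate 2 was the lowest of FL1 in diestrus, while both ctrl groups covered nearly the same range. Kdr was weaker expressed in FL1 in estrus with a log2FC of -0.79 ± 0.11 (edgeR adjusted p = 0.000144), against -0.16 ± 0.18 in ctrl (edgeR adjusted p = 0.754). Both Flt1 and Kdr kept their call in FL1 whichever of the 10 libraries was left out.

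Vegfa, the ligand (chromosome 17, 46016993 to 46032369, minus strand), varied widely within the groups. The FL1 libraries had 47.1, 35.6, 58.7, 35.4 and 50.8 CPM in estrus and 37.6, 79.3, 76.0, 81.1 and 66.8 CPM in diestrus. The ctrl libraries spread from 30.4 to 90.5 CPM in estrus and from 32.1 to 68.7 CPM in diestrus. In FL1, 4 of the 5 diestrus libraries lay above all estrus libraries and replicate 1 lay among them. The log2FC in FL1 was -0.58 ± 0.18 (edgeR adjusted p = 0.0420), and the call was kept in only 2 of the 10 fits that left out 1 library, those without replicate 1 of FL1 in diestrus or replicate 3 of FL1 in estrus, and was lost when all 20 libraries were fitted together (edgeR adjusted p = 0.191). Between the stages in ctrl the log2FC was 0.10 ± 0.31 (edgeR adjusted p = 0.928).

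Between the lines neither receptor nor ligand passed the test in either stage. Flt1 was at 60.9 ± 5.79 CPM in ctrl and 48.5 ± 4.88 CPM in FL1 in estrus (SD, n = 5 each), a log2FC of -0.33 ± 0.11 (edgeR adjusted p = 0.139). In diestrus the sign was the opposite, with 78.1 ± 20.7 CPM in ctrl and 104 ± 19.0 CPM in FL1 (SD, n = 5 each) and a log2FC of 0.41 ± 0.18 (edgeR adjusted p = 0.234). Kdr showed the same order of the 4 groups as Flt1, from FL1 in diestrus over ctrl in diestrus and ctrl in estrus to FL1 in estrus, and in this order each group overlapped its neighbour. For Kdr the log2FC of FL1 against ctrl was -0.31 ± 0.13 in estrus (edgeR adjusted p = 0.268) and 0.31 ± 0.16 in diestrus (edgeR adjusted p = 0.346). The estrus value of Kdr was -0.18 without replicate 5 of ctrl in estrus, and the diestrus value was 0.20 without replicate 1 of ctrl in diestrus. For Vegfa the log2FC was -0.22 ± 0.27 in estrus (edgeR adjusted p = 0.753) and 0.46 ± 0.23 in diestrus (edgeR adjusted p = 0.333).

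Because Vegfa, Kdr, Flt1 and Efnb2 were called in the same direction between the stages of FL1 and Tek was not called, the 250 bases before their start sites are shown (5' to 3' of the gene, RefSeq on GRCm38.p6). Capitals mark the letters GGAA or their reverse complement TTCC, the core that ETS transcription factors of endothelial cells such as FLI1 and ERG bind.
Vegfa (chr17:46032378-46032627, minus strand): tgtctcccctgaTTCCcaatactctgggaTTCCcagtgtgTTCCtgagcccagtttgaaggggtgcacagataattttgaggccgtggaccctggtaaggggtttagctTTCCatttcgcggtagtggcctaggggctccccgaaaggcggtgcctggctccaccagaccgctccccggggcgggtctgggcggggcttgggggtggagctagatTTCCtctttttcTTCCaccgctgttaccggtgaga
Kdr (chr5:75978456-75978705, minus strand): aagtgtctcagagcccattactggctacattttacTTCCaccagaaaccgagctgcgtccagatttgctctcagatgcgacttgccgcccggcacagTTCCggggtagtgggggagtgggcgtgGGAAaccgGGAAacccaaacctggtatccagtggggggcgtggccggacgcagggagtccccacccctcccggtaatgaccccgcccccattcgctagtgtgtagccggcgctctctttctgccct
Flt1 (chr5:147726012-147726261, minus strand): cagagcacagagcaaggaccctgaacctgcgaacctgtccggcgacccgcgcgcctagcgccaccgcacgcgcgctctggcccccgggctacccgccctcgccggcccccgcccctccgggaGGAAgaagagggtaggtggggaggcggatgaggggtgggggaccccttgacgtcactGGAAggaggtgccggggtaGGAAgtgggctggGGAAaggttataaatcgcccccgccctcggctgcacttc
Efnb2 (chr8:8661243-8661492, minus strand): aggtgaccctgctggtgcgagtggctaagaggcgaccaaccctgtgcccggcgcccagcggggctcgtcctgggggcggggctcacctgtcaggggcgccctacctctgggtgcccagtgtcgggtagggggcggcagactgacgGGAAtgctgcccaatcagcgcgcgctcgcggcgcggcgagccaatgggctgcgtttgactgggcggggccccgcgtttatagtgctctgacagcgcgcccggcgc
Tek (chr4:94739039-94739288, plus strand): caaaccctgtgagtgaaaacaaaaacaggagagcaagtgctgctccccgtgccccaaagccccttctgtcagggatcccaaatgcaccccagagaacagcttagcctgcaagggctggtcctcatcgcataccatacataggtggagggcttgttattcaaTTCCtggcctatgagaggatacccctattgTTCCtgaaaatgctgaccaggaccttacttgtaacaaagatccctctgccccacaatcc

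The core was found 6 times in the window shown for Vegfa, 4 times in the windows of Kdr and Flt1, 2 times in that of Tek and 1 time in that of Efnb2, counting both strands. It is a short word, and 93.4% of 32851 mouse promoter windows of this length held it at least 1 time, with a median of 3 matches, while 33.4% held at least 4 and 8.69% at least 6. The longer form CCGGAA, which 12.03% of windows held, occurred 1 time for Kdr and not in the other windows. The letters ACGTG or GCGTG, the core of a hypoxia response element, were in 38.6% of windows and were found 2 times for Kdr, 1 time for Flt1 and not in the windows shown for Vegfa, Efnb2 and Tek. The table holds another window for Vegfa at a start within the gene (chr17:46025164-46025413, not shown), with 2 matches of GGAA and 2 of the hypoxia core. The G+C content was 51.2% for Tek, 59.2% for the Vegfa window shown, 61.6% for Kdr, 70.4% for Flt1 and 72.0% for Efnb2. Of the 10 genes, 5 had a window in the table, and the windows of Angpt1, Angpt2, Pecam1, Cdh5 and Sox17 were not analysed here.

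Angpt1, the ligand that stabilizes vessels (chromosome 15, 42424723 to 42676977, minus strand), had, with Flt1, the largest change of the 10 genes between the stages in FL1. It was at 12.7, 18.3, 16.1, 22.8 and 26.8 CPM in FL1 in estrus and at 51.5, 33.6, 49.7, 37.7 and 40.7 CPM in FL1 in diestrus. In ctrl the libraries had 13.4, 18.7, 24.3, 23.9 and 22.0 CPM in estrus and 14.3, 35.1, 31.3, 29.996 and 26.6 CPM in diestrus. The lowest FL1 diestrus library was above all FL1 estrus libraries, and in ctrl only replicate 1 of diestrus fell into the estrus range. The mean in FL1 was 19.3 ± 5.56 CPM in estrus and 42.6 ± 7.72 CPM in diestrus (SD, n = 5 each), a log2FC of -1.14 ± 0.18 (edgeR adjusted p = 0.000399), and in ctrl the log2FC was -0.42 ± 0.23 (edgeR adjusted p = 0.431). FL1 exceeded ctrl in diestrus in 24 of 25 pairs of libraries, with a log2FC of 0.64 ± 0.20 that edgeR did not call (adjusted p = 0.0988) and DESeq2 called (adjusted p = 0.0438). In estrus the lines were at -0.084 on the log2 scale (edgeR adjusted p = 0.894).

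Angpt2, the antagonist ligand, lies on chromosome 8 (18690263 to 18741562, minus strand) within Mcph1, which is on the opposite strand and had 71 to 216 counts per library. The strand setting of the counting is not given in the sources used here, so reads of the overlap cannot be assigned with certainty. No difference of Mcph1 was called in the 5 comparisons (edgeR adjusted p from 0.389 to 0.995). The ctrl estrus libraries had 47.3, 21.2, 37.4, 15.8 and 14.3 Angpt2 CPM, the widest relative spread of any of the 10 genes in any group, and the FL1 estrus libraries had 41.8, 25.9, 26.7, 28.4 and 25.3 CPM. In diestrus it was at 42.9, 51.4, 27.1, 38.6 and 37.7 CPM in ctrl and at 33.4, 36.6, 39.1, 39.0 and 37.6 CPM in FL1. FL1 in diestrus was thus narrow, and the single high FL1 estrus library, replicate 1, lay above all of it. The stage log2FC was -0.33 ± 0.14 in FL1 (edgeR adjusted p = 0.113) and -0.54 ± 0.30 in ctrl (edgeR adjusted p = 0.437). Without replicate 1 of FL1 in estrus it was -0.48 and called (edgeR adjusted p = 0.00589). Limma-voom with sample weights also called Angpt2 between the stages of FL1 (adjusted p = 0.0294).

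Tek, the receptor of both angiopoietins (chromosome 4, 94739289 to 94874976, plus strand), was not called in any comparison. Its mean was 12.2 ± 4.22 CPM in ctrl in estrus, 11.9 ± 3.12 CPM in FL1 in estrus, 14.5 ± 2.76 CPM in ctrl in diestrus and 15.4 ± 3.16 CPM in FL1 in diestrus (SD, n = 5 each). All 4 groups overlapped. The log2FC between the stages was -0.38 ± 0.19 in FL1 (edgeR adjusted p = 0.200) and -0.26 ± 0.24 in ctrl (edgeR adjusted p = 0.691), and between the lines it was -0.036 ± 0.25 in estrus and 0.089 ± 0.18 in diestrus (edgeR adjusted p = 0.964 and 0.856). With 53 to 165 counts per library Tek was, with Sox17, one of the genes with the fewest reads, and the SE of its log2FC exceeded that of Cdh5 in each comparison.

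Pecam1 (chromosome 11, 106654217 to 106750628, minus strand), an adhesion molecule used as a general endothelial marker, was at 46.1, 41.8, 64.3, 52.8 and 57.0 CPM in FL1 in estrus and at 88.7, 79.9, 105, 80.7 and 87.3 CPM in FL1 in diestrus. In ctrl it was at 63.1, 57.1, 48.9, 57.1 and 122 CPM in estrus and 76.1, 89.5, 80.1, 76.3 and 57.3 CPM in diestrus. The FL1 stages did not overlap, and the ctrl stages overlapped through the very high replicate 5 of estrus and the low replicate 5 of diestrus. The stage log2FC was -0.75 ± 0.12 in FL1 (edgeR adjusted p = 0.000332) and -0.13 ± 0.22 in ctrl (edgeR adjusted p = 0.845). Without replicate 5 of ctrl in estrus the value in ctrl was -0.43 (edgeR adjusted p = 0.0858), which is more than 1.5 times the value with it and still not called. The line difference in estrus was -0.41 ± 0.22 with this library (edgeR adjusted p = 0.395) and -0.10 without it.

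Cdh5, the cadherin of endothelial junctions (chromosome 8, 104101625 to 104144511, plus strand), had a narrow spread. It was at 43.7, 38.2, 47.6, 43.6 and 43.7 CPM in FL1 in estrus and at 64.3, 59.4, 68.6, 60.4 and 72.9 CPM in FL1 in diestrus. The ctrl libraries had 53.7, 57.2, 70.5, 51.04 and 56.2 CPM in estrus and 59.7, 72.7, 76.3, 54.2 and 65.2 CPM in diestrus. FL1 in estrus was the lowest group and overlapped with none of the other 3, which overlapped with each other. The stage log2FC was -0.59 ± 0.093 in FL1 (edgeR adjusted p = 0.000427) and -0.19 ± 0.12 in ctrl (edgeR adjusted p = 0.526). In estrus Cdh5 was at 43.4 ± 3.35 CPM in FL1 and 57.7 ± 7.51 CPM in ctrl (SD, n = 5 each), and the log2FC of -0.41 ± 0.11 missed the threshold in edgeR (adjusted p = 0.0729) and in limma-voom (adjusted p = 0.0584) but not in DESeq2 (adjusted p = 0.0416). The estrus libraries of both lines did not overlap for Cdh5, which held for 2.40% of all genes tested in that direction. In diestrus the lines were at -0.013 ± 0.11 (edgeR adjusted p = 0.972).

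Efnb2, the arterial ephrin (chromosome 8, 8617434 to 8661242, minus strand), was called between the lines by edgeR, as the only one of the 10 genes with the count filter and the libraries used here. With a filter of at least 1 count in total edgeR also called Angpt1 in diestrus (adjusted p = 0.0199), and in 1 fit of all 20 libraries it also called Cdh5 in estrus (adjusted p = 0.0310). In diestrus it was at 30.99, 35.3, 43.5, 32.6 and 22.7 CPM in FL1 and at 16.3, 21.1, 19.6, 22.1 and 17.3 CPM in ctrl. In estrus it was at 13.4, 19.4, 21.3, 19.97 and 24.0 CPM in FL1 and at 14.9, 16.4, 17.1, 12.5 and 17.1 CPM in ctrl. In diestrus all FL1 libraries lay above all ctrl libraries, the lowest of them, replicate 5, by a narrow margin, a separation found for 2.96% of all genes tested, and in estrus the FL1 libraries were higher in 21 of 25 pairs but replicate 1 lay within ctrl. The mean in diestrus was 33.0 ± 7.52 CPM in FL1 and 19.3 ± 2.48 CPM in ctrl (SD, n = 5 each), a log2FC of 0.78 ± 0.16 or 1.72-fold (edgeR adjusted p = 0.0127). This call was kept in 10 of 10 fits without 1 library (edgeR adjusted p at most 0.0355). In estrus the log2FC was 0.33 ± 0.17 (edgeR adjusted p = 0.375). Between the stages Efnb2 changed by -0.75 ± 0.17 in FL1 (edgeR adjusted p = 0.00692) and by -0.31 ± 0.15 in ctrl (edgeR adjusted p = 0.361). The order of the groups, with both FL1 groups above both ctrl groups in their means, was found for none of the other 9 genes, although FL1 in estrus and ctrl in diestrus differed by less than their SD. On the same strand Efnb2 overlaps 3 predicted genes with at most 9 counts per library.

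Sox17, the arterial transcription factor (chromosome 1, 4490931 to 4497354, minus strand), had the fewest reads, from 38 to 120 counts per library. Its mean was 10.8 ± 2.09 CPM in ctrl in estrus, 8.89 ± 2.76 CPM in FL1 in estrus, 11.1 ± 3.83 CPM in ctrl in diestrus and 12.8 ± 3.22 CPM in FL1 in diestrus (SD, n = 5 each). The groups overlapped in every comparison and Sox17 was not called in any. The stage log2FC was -0.51 ± 0.23 in FL1 (edgeR adjusted p = 0.145) and -0.028 ± 0.25 in ctrl (edgeR adjusted p = 0.978).

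The stage changes of both lines were set against each other in the interaction, where a negative value means that the estrus against diestrus log2FC was lower in FL1 than in ctrl. The value was below 0 for 9 of the 10 genes, all but Angpt2, with a median of -0.55 over the 10 and of 0.0085 over all genes tested. Flt1 had the lowest interaction p of the 10, with a value of -0.74 ± 0.22 (edgeR adjusted p = 0.177). It was -0.62 ± 0.23 for Kdr (edgeR adjusted p = 0.275), -0.40 ± 0.15 for Cdh5 (edgeR adjusted p = 0.290), -0.62 ± 0.26 for Pecam1 (edgeR adjusted p = 0.353) and -0.72 ± 0.31 for Angpt1 (edgeR adjusted p = 0.360). Without replicate 5 of ctrl in estrus the interaction value of Pecam1 was -0.32 (edgeR adjusted p = 0.467). That 7 genes were called in FL1 and 0 in ctrl is therefore not shown to be a difference between the lines. The same 4 groups enter both the line and the stage comparisons, so these are not independent of each other.

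Ratios of counts within a library were compared because they do not depend on library scaling. Counts per gene do not separate the soluble form of Flt1 from its membrane form. The Flt1 to Kdr ratio ranged from 0.473 to 0.518 in FL1 in estrus and from 0.575 to 0.677 in FL1 in diestrus, without overlap. The difference was -0.30 on the log2 scale, lower in estrus in 25 of 25 pairs, with a p of 0.00794 in the two-sided exact permutation test, the smallest that 5 against 5 libraries allow, and an adjusted p of 0.0952 over the 12 ratio tests. Over 12 tests, 1 ratio alone at this smallest p cannot reach an adjusted p of 0.05, so the adjustment does not decide here. In ctrl the ratio ranged from 0.429 to 0.601 in estrus and from 0.499 to 0.677 in diestrus, a log2 difference of -0.18 (exact permutation p = 0.175, adjusted p = 0.524). The Angpt2 to Angpt1 ratio was between 0.650 and 1.09 in FL1 in diestrus and between 0.944 and 3.29 in FL1 in estrus. It was higher in estrus of FL1 by 0.82 on the log2 scale (exact permutation p = 0.0238, adjusted p = 0.143) and in diestrus the log2 difference of FL1 against ctrl was -0.74 (exact permutation p = 0.0397, adjusted p = 0.159). Neither passed the adjustment. For the Vegfa to Kdr ratio the exact permutation p lay between 0.548 and 0.722 in the 4 comparisons, with differences from 0.13 to 0.22 on the log2 scale.

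**Figure D3:**
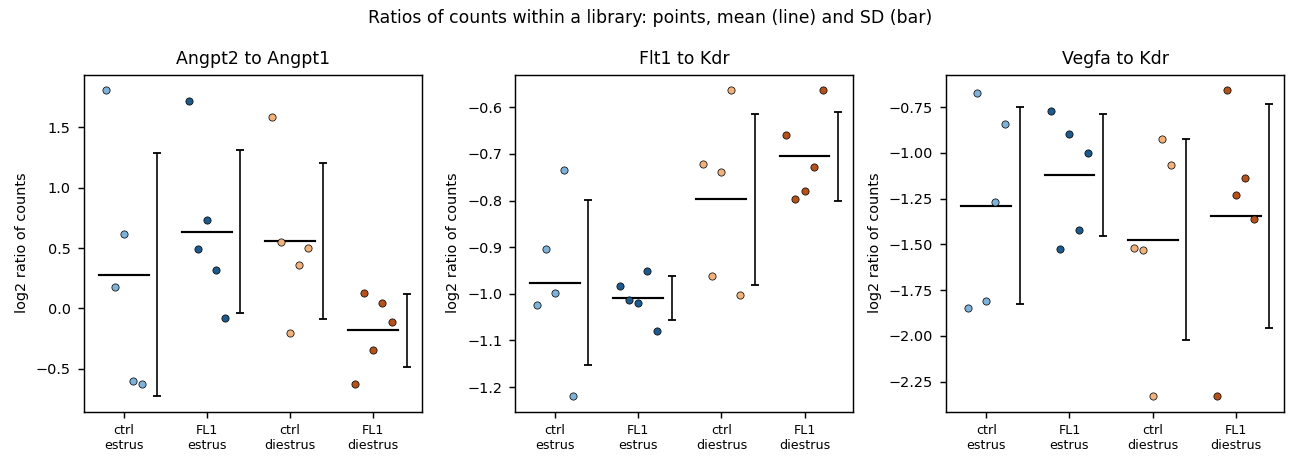
Log2 ratio of counts within a library (y axis) for Angpt2 to Angpt1, Flt1 to Kdr and Vegfa to Kdr in the 4 groups (x axis), with 1 point per library, a line at the mean and a bar of 1 SD. The Flt1 to Kdr ratio of the FL1 estrus libraries lies below that of all FL1 diestrus libraries, and the Vegfa to Kdr ratio overlaps between all groups.

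Set against the general endothelial genes, as log2 counts minus the mean log2 counts of Pecam1 and Cdh5 in the same library (a description chosen after the values were seen), Efnb2 was at -1.29 ± 0.29 in FL1 and -1.98 ± 0.21 in ctrl in estrus (SD, n = 5 each). In diestrus it was at -1.22 ± 0.35 in FL1 and -1.87 ± 0.20 in ctrl (SD, n = 5 each). For Efnb2 this relative level was thus nearly the same in both stages of a line. Pecam1 and Cdh5 were themselves called lower in estrus of FL1. In estrus the log2FC of FL1 against ctrl was -0.41 for both, not called in the main edgeR test. A relative level therefore also carries the differences of Pecam1 and Cdh5, and the high Pecam1 value of replicate 5 of ctrl in estrus. The relative level of Kdr lay between 0.91 and 1.14 in the 4 group means and that of Sox17 between -2.71 and -2.46. For Flt1 it was 0.028 ± 0.19 in estrus and 0.44 ± 0.26 in diestrus of FL1 (SD, n = 5 each).

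Beyond the 10 genes, 90 further genes of 8 vascular lists were examined. Between the stages in FL1, 79 of them were tested, of which 19 (24.1%) were lower and 8 (10.1%) were higher in estrus, against 8.49% lower and 7.42% higher of all genes. In ctrl 82 were tested, of which 1 (1.22%) was lower and 7 (8.54%) were higher, against 1.06% and 1.78% of all genes. The list of endothelial identity and junctions held most of the lower genes in FL1, with 10 of 20 lower and 0 higher, at a median log2FC of -0.52. Its largest changes were those of the transcription factor Sox7 (-1.14 ± 0.35, edgeR adjusted p = 0.0361), of Vwf, the adhesive glycoprotein of platelets and endothelium (-1.08 ± 0.27, edgeR adjusted p = 0.0118), and of Mmrn2, an extracellular matrix protein of endothelium (-0.83 ± 0.11, edgeR adjusted p = 5.45e-05). In ctrl 0 of these 20 genes were called between the stages, at a median of -0.12. Among 3 tested genes of angiopoietin and TIE signalling, Ptprb, the phosphatase that acts on TEK, fell by 1.04 (edgeR adjusted p = 9.90e-05), Tie1, the orphan receptor related to TEK, fell by 0.71 (edgeR adjusted p = 0.0165), and Angpt4, a further ligand of TEK, rose by 0.93 in estrus of FL1 (edgeR adjusted p = 0.0374). Of 6 tested further VEGF ligands, receptors and co-receptors, the co-receptor Nrp1 was lower (-0.33 ± 0.092, edgeR adjusted p = 0.0204) and Nrp2 was higher (0.41 ± 0.12, edgeR adjusted p = 0.0262).

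Of 16 tested arterial, Notch and tip cell genes, 4 were lower and 2 higher in estrus of FL1. Lower were the tip cell proteoglycan Esm1 (-1.32 ± 0.36, edgeR adjusted p = 0.0188), the endothelial receptor Notch4 (-1.12 ± 0.37, edgeR adjusted p = 0.0475) and the Notch target Hey1 (-0.95 ± 0.27, edgeR adjusted p = 0.0221), besides Jag2. (Hey1 and Jag2 were named after their values were seen.) Esm1 is scarce, at 0.905 ± 0.266 CPM in estrus (SD, n = 5). Apln, the peptide ligand of the apelin receptor, went the other way in both lines. It was higher in estrus in FL1 (40.8 ± 7.54 against 16.1 ± 1.76 CPM, SD, n = 5 each, edgeR adjusted p = 1.07e-05) and in ctrl (22.1 ± 9.13 against 6.77 ± 3.27 CPM, SD, n = 5 each, edgeR adjusted p = 0.0226). In diestrus Apln was also stronger expressed in FL1 than in ctrl by 1.24 ± 0.29 on the log2 scale (edgeR adjusted p = 0.0259).

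Among the inhibitors and matrix factors, Adamts1, a protease that cleaves matrix and is induced around ovulation, rose in estrus by 2.28 ± 0.22 in FL1 (edgeR adjusted p = 2.76e-06) and by 1.75 ± 0.19 in ctrl (edgeR adjusted p = 0.000483). In FL1 it was 1 of 8 tested, and in ctrl 4 of 8 were higher, the others being the growth factor Fgf2 (0.98 ± 0.18, edgeR adjusted p = 0.0106), the inhibitor Serpinf1 (0.75 ± 0.15, edgeR adjusted p = 0.0166) and Col18a1, which encodes the precursor of endostatin and was named after its value was seen. Of 11 tested genes of the hypoxia response, Epas1, the HIF subunit typical of endothelium, fell in estrus in FL1 (-0.79 ± 0.089, edgeR adjusted p = 1.56e-05) and in ctrl (-0.47 ± 0.094, edgeR adjusted p = 0.0185). In FL1 the glucose transporter Slc2a1 (0.74 ± 0.16, edgeR adjusted p = 0.00492) and the mitophagy receptor Bnip3 (0.59 ± 0.13, edgeR adjusted p = 0.00482) were higher in estrus. Pdpn, a marker of lymphatic endothelium that other cells also make, was the 1 called gene of 6 tested on the venous and lymphatic list, and it was higher in estrus in both lines (FL1 0.84 ± 0.16, edgeR adjusted p = 0.00175; ctrl 0.91 ± 0.23, edgeR adjusted p = 0.0492). On the pericyte list Kcnj8 was lower in estrus of FL1 (-0.47 ± 0.15, edgeR adjusted p = 0.0395) and Mcam was higher in estrus of ctrl (0.68 ± 0.16, edgeR adjusted p = 0.0353).

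**Figure D4:**
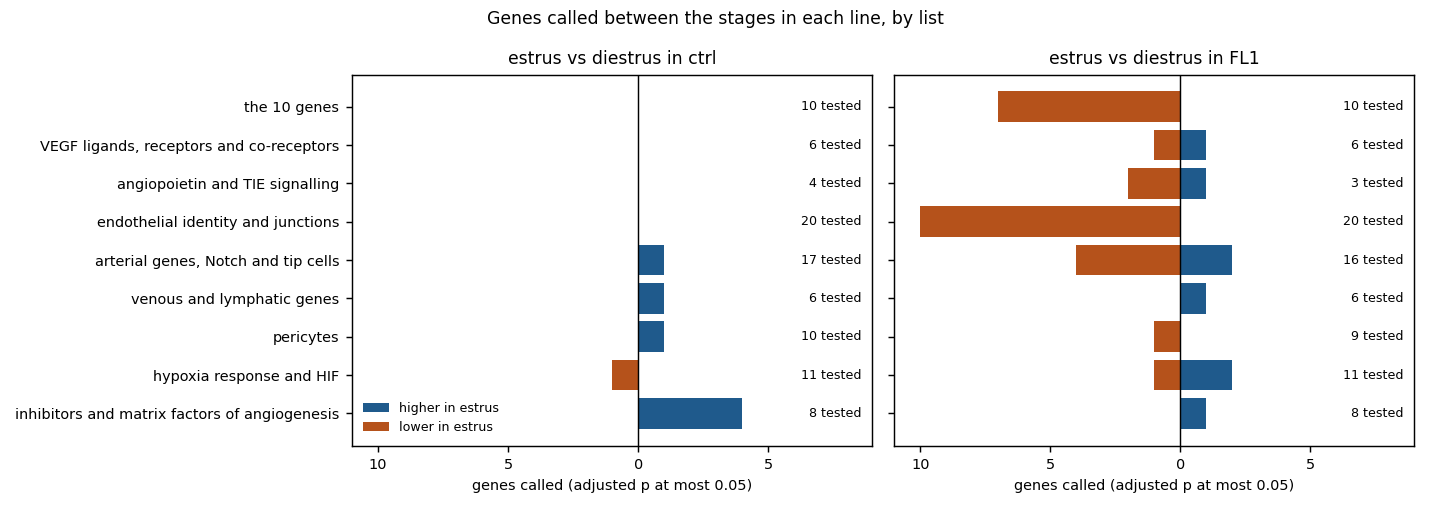
Number of genes called between estrus and diestrus (x axis, adjusted p at most 0.05, lower in estrus to the left and higher to the right) for the 10 genes and 8 further vascular lists (y axis) in ctrl and FL1, with the number tested at the right. In FL1 the calls are lower in estrus for 7 of the 10 genes and for 10 of 20 genes of endothelial identity, and in ctrl no gene of either was called.

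Between the lines, 79 of the 90 genes were tested in diestrus, with 3 higher and 1 lower in FL1, or 5.06% against 4.11% of all genes. In estrus 82 were tested, with 0 higher and 3 lower, or 3.66% against 2.33% of all genes. Egfl7, a factor secreted by endothelium, was higher in FL1 in diestrus (76.4 ± 9.34 against 48.8 ± 6.67 CPM, SD, n = 5 each, log2FC 0.65 ± 0.11, edgeR adjusted p = 0.00528), as were Apln and the pericyte potassium channel Kcnj8 (0.72 ± 0.15, edgeR adjusted p = 0.0147). Hspg2, the perlecan of basement membranes, was lower in FL1 in diestrus (-0.63 ± 0.14, edgeR adjusted p = 0.0207) and in estrus (-0.69 ± 0.16, edgeR adjusted p = 0.0401). In estrus Rgs5, a regulator of G protein signalling typical of pericytes, was lower in FL1 (47.5 ± 10.0 against 127 ± 45.4 CPM, SD, n = 5 each, log2FC -1.41 ± 0.21, edgeR adjusted p = 0.00230), as was Fgf2 (-0.94 ± 0.21, edgeR adjusted p = 0.0318). In the interaction 0 of 85 tested genes of these lists were called, against 0.0565% of all genes.

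Marker genes of other cell types differed between the stages as well, which in whole ovaries does not separate cell number from RNA per cell. Of all genes tested, 8.49% were called lower and 7.42% higher in estrus of FL1, against 1.06% and 1.78% in ctrl. The summed level of 6 luteal markers ranged from 17215 to 34304 CPM in FL1 in estrus and from 33419 to 43882 CPM in FL1 in diestrus, and in ctrl from 14965 to 38195 CPM and from 27999 to 48422 CPM. In FL1 5 of the 6 were lower in estrus (Lhcgr, Star, Ptgfr, Cyp11a1 and Hsd3b1), most of all the luteinizing hormone receptor Lhcgr (-2.64 ± 0.18, edgeR adjusted p = 6.30e-08), and in ctrl 1 of 6 (Lhcgr, -1.75 ± 0.34, edgeR adjusted p = 0.0161). The 5 blood markers, globins and Alas2, summed to between 877 and 1673 CPM in estrus and between 1277 and 3526 CPM in diestrus of FL1, with 4 of 5 (Hbb-bt, Hbb-bs, Hba-a1 and Alas2) lower in estrus. In ctrl they summed to between 769.9 and 1595 CPM in estrus and between 441 and 2819 CPM in diestrus, with 0 of 5 called. The 6 smooth muscle markers summed to between 1258 and 1650.2 CPM in estrus and between 869 and 1432 CPM in diestrus of FL1, with 4 of 6 higher in estrus (Des, Tagln, Actg2 and Cnn1), and 2 of 6 were higher in ctrl (Tagln and Myh11). The 12 endothelial markers, 4 of which (Kdr, Tek, Pecam1 and Cdh5) are also among the 10 genes, summed to between 369 and 439 CPM in estrus and between 564 and 697 CPM in diestrus of FL1, without overlap. In ctrl they summed to between 430.1 and 704 CPM in estrus and between 462 and 644 CPM in diestrus. Of the 5 fat markers 1 (Fabp4, which capillary endothelium also expresses) was higher in estrus of FL1. Of the 6 granulosa markers 5 were tested and 2 (Cyp19a1 and Foxl2) were lower, and of 6 oocyte markers 1 (Bmp15) was higher. Of the 4 oviduct markers only 1 was tested, and 0 oviduct and 0 of 6 leukocyte markers were called between the stages of FL1. The oviduct markers summed to at most 7.60 CPM in any library. The part of these cell types in the results of the 10 genes was not tested.

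Between the lines in diestrus, where Efnb2 was called, 4.11% of all genes tested were called and 2.29% were called as higher. In FL1 1 marker each of blood (Hba-a2), leukocytes (Laptm5), granulosa cells (Foxl2), luteal cells (Lhcgr) and endothelium (Egfl7) was higher. Of smooth muscle, fat, oviduct and oocyte 0 markers were called. Of the lists, 5 of 6 granulosa, 3 of 5 fat and 1 of 4 oviduct markers were tested. Hba-a2 has a near-identical copy, Hba-a1, and whether they share reads was not tested. The log2FC of Hba-a2 was 4.77 ± 0.66 (edgeR adjusted p = 0.00101). Lhcgr was at 591 ± 145 CPM in FL1 and 219.7 ± 114 CPM in ctrl (SD, n = 5 each), a log2FC of 1.43 ± 0.32 (edgeR adjusted p = 0.0209). The sums of the 6 luteal markers overlapped between the lines, from 33419 to 43882 CPM in FL1 and from 27999 to 48422 CPM in ctrl. The part of these markers in the difference of Efnb2 was not tested. In estrus 0 markers of the 9 lists were called between the lines by edgeR, against 2.33% of all genes tested. There too 5 granulosa, 3 fat and 1 oviduct markers were tested.

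Across the 20 libraries, as a description of libraries that share groups and stages, Pearson's r of log2 CPM was above 0 in 42 of the 45 pairs of the 10 genes, with a median of 0.44, and 0.18 after the group means were taken out. The closest pair were both VEGF receptors, Kdr and Flt1, with r = 0.94, and with r = 0.88 after the group means were taken out. Flt1 and Angpt1 followed with r = 0.85. The 3 pairs below 0 all held Angpt2, with Sox17 (-0.13), Vegfa (-0.12) and Tek (-0.042). After the group means were taken out, r ranged from -0.39 (Angpt1 with Angpt2) to 0.88. More pairs were then below 0, among them pairs without Angpt2, such as Tek with Cdh5 (-0.17) and Flt1 with Tek (-0.11).

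Among the other 14144 genes, the genes most like each of the 10 in log2 CPM over the 20 libraries were looked up, up to 2 for each. Hacd3 was nearest to both Flt1 (r = 0.96) and Kdr (r = 0.94), followed by Fam213b for Kdr (r = 0.89). For Pecam1 they were Dusp3 (r = 0.92) and Cyp51 (r = 0.90), for Cdh5 Rims4 (r = 0.93) and Pogk (r = 0.87), and for Efnb2 Rnf103 (r = 0.89) and Egfl7 (r = 0.87). Angpt1 was most like Echs1 and Fbxl16 (r = 0.88 for both) and Angpt2 most like Arhgef28 and Tmtc2 (r = 0.83 for both). Vegfa was most like Cish (r = 0.88) and Pgpep1 (r = 0.82). The values were lower for Tek, with Mex3d (r = 0.77) and Gm31814 (r = 0.76), and for Sox17, with Samd8 (r = 0.78) and 2610507B11Rik (r = 0.77). After the group means were taken out, r of the genes named here ranged from 0.49 (Pogk for Cdh5) to 0.89 (Cish for Vegfa), and it was 0.55 for Egfl7 with Efnb2, 0.64 for Fbxl16 with Angpt1 and above 0.7 for all others. The 100th most similar gene still reached r = 0.82 for Flt1 and r = 0.60 for Tek.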

How the data were processed

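RNA of whole ovaries was sequenced in 20 libraries, 5 per line and stage, grouped by their titles. The deposited values are raw counts per Ensembl gene, 1 table per library. By the study's methods the authors prepared 3' libraries with the QuantSeq kit, mapped the trimmed reads to GRCm38 with STAR and counted those assigned uniquely. The submitters' processing notes also name Cuffdiff. The counting tool, its strand setting and the use of molecular identifiers are not given in the sources used here, so that a read need not be an independent molecule. The methods compared the groups with DESeq2.

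All further values were computed here. Symbols and positions came from GENCODE M21 (GRCm38), which holds 54809 of 54838 genes, and the start-site windows from RefSeq. The 10 genes and the gene lists were chosen with earlier results of these data known, so that no list is independent support. The main test was the quasi-likelihood test of edgeR 4.0.16 in R 4.3.3 with TMM scaling and filterByExpr at a minimum count of 10, over the 10 libraries of a comparison or, for the interaction, over all 20. P-values were adjusted after Benjamini and Hochberg over all genes tested, and called means an adjusted p of at most 0.05. The SE of a log2FC is its size over the root of the F value. Log2 CPM for correlations used a prior count of 2. Count ratios took 0.5 added counts and two-sided exact permutation over 252 splits. Depth was 5991223 to 10352718 counts per library, and Sox17 and Tek rest on the fewest reads. The fits between the lines were tested on simulated data. At a simulated log2FC of 1, edgeR recovered 69 of 100 changed genes in estrus and 73 of 100 in diestrus. Smaller changes, the stage comparisons and the interaction were not simulated, so how many smaller changes would be called is not known. Alternatives were DESeq2 1.42.0, limma-voom (limma 3.58.1) with sample weights, RLE size factors, other count filters, leaving out each library, 1 fit of all libraries, and a block for the replicate number. Python 3.11.15 with scipy 1.17.1 was used for the ratios. No 2 libraries of a group agreed within sampling noise. Each library is taken as 1 animal by the study's methods, so p-values measure the spread between these animals.

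Named in the text are the 10 genes, in each comparison and list the up to 3 called genes with the largest absolute log2FC, and for each of the 10 genes its 2 most similar genes by Pearson's r. For Flt1, 1 of these is not reported here. Marker genes named beyond the 3 of a list were named after their values were seen.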

Additional observations from a re-analysis of the deposited data

Results flagged for a closer look

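In each group of 5 libraries the gap between the most extreme library and its neighbour was divided by the group's range, for the 10 genes in 4 groups. It exceeded the critical value of 0.71 in 3 of 40 cases, and chance gives about 1 in 20, or 2 of 40. Pecam1 was at 122 CPM in replicate 5 of ctrl in estrus against 48.9 to 63.1 CPM in the others (gap 0.806 of the range). Angpt2 was at 41.8 CPM in replicate 1 of FL1 in estrus against 25.3 to 28.4 CPM in the others (gap 0.811 of the range). Kdr was at 125 CPM in replicate 2 of FL1 in diestrus against 172 to 189 CPM in the others (gap 0.734 of the range). The Kdr library was also the lowest of its group for 6 of the 10 genes, and the call of Kdr between the stages of FL1 was kept without it. The causes were not tested.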

How the results depend on the processing

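Of the 10 genes, 0 were called between the lines in estrus, between the stages in ctrl and in the interaction whichever library was left out, 1 (Efnb2) was called between the lines in diestrus, and 6 or 7 between the stages in FL1. The number called between the lines in diestrus was 2 with DESeq2 and 2 with all genes of at least 1 count in total (Angpt1 added in both), and in estrus it was 1 with DESeq2 and 1 with a fit of all 20 libraries (Cdh5 in both). The cause of these added calls was not tested. Of all genes, DESeq2 called 891 of 16729 in diestrus and 670 of 16872 in estrus. The filter of at least 1 count called 846 of 25729 in diestrus, and the fit of all 20 libraries called 531 of 14154 in estrus.

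Over all genes edgeR called 311 between the lines in estrus, 545 in diestrus, 380 between the stages in ctrl, 2123 in FL1 and 8 in the interaction. In the order of estrus, diestrus, ctrl stages and interaction, DESeq2 called 670, 891, 771 and 148. With genes of at least 1 count in total 477, 846 and 17 were called in estrus, diestrus and the interaction. The fit of all 20 libraries called 531 in estrus and 909 between the ctrl stages, and limma-voom called 653 between the ctrl stages and 31 in the interaction. Leaving out 1 library gave 175 to 418 in estrus, 349 to 594 in diestrus and 176 to 516 between the ctrl stages. It gave 1582 to 2316 between the FL1 stages and 0 to 15 in the interaction. The moves beyond 1.5 times came without FL1 replicates 1, 2, 4 or 5 in estrus, without FL1 replicate 4 in diestrus (349), without replicates 2 or 4 of estrus or 2, 3 or 4 of diestrus between the ctrl stages, and without 14 of the 20 libraries in the interaction.

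Leaving out 1 library moved 0 of the 8 called log2FC of the 10 genes and 23 of the 42 others by over 1.5 times. Some log2FC near 0, none of them called, changed sign. With limma-voom these were Angpt1 (0.0050) and Tek (0.17) between the lines in estrus, Sox17 (0.016) and Vegfa (-0.19) between the ctrl stages, and Tek in the interaction (0.078). Leaving out 1 library moved the log2FC between the lines in estrus from -0.23 to 0.031 for Angpt1, from -0.043 to 0.41 for Angpt2, from -0.20 to 0.17 for Tek and from -0.37 to 0.057 for Vegfa. In diestrus it moved from -0.20 to 0.018 for Angpt2, from -0.073 to 0.046 for Cdh5 and from -0.020 to 0.17 for Tek. Between the ctrl stages it moved from -0.16 to 0.17 for Sox17 and from -0.18 to 0.25 for Vegfa, and in the interaction from -0.29 to 0.072 for Tek. The log2 ratio differences moved from -0.094 to 0.027 for Flt1 to Kdr between the lines in estrus. For Vegfa to Kdr they moved from -0.084 to 0.38 between the lines in diestrus, from -0.025 to 0.39 between the stages in FL1 and from -0.030 to 0.32 between those in ctrl. For Angpt2 to Angpt1 the difference ranged from -0.93 to -0.48 between the lines in diestrus and from 0.55 to 1.00 between the stages in FL1, and for Flt1 to Kdr between the stages in FL1 from -0.33 to -0.27. Each of these 3 passed the adjustment in 1 of its 10 tests without a library by exact permutation, the first without replicate 3 of ctrl in diestrus and the others without replicate 5 of FL1 in estrus. Over 12 tests 1 ratio alone cannot pass, so each pass needed another ratio with a similarly small p. The exact p of Flt1 to Kdr between the FL1 stages was already the smallest possible with all libraries. These passes therefore do not show stronger differences.

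Same-numbered libraries are different animals. The correlation of their deviations from the group means lay between -0.095 and 0.13 and exceeded 0.1 in 1 of the 20 pairs, and 1 or 2 of 5 libraries in a comparison were closest to their own number. With the replicate number as a block, 0, 1, 0, 6 and 0 of the 10 genes were called in the 2 line comparisons, the ctrl and FL1 stages and the interaction, the missing call being Vegfa (edgeR adjusted p = 0.0573), and Sox17 between the ctrl stages was at 0.0033. Of all genes the block fits called, in the same order, 230 of 13374, 498 of 13259, 259 of 13334, 2020 of 13350 and 12 of 14154. The block moved no count of calls by over 1.5 times. RLE size factors and the filter of at least 10 counts in every library changed no call or sign of the 10 genes.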
